A study of Mus musculus with 8 samples.

Results

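The loci of Nr2f1 and Nr2f2, which encode the orphan nuclear receptors COUP-TFI and COUP-TFII, were examined for OTX2 binding in the embryonic mouse subpallium. A peak belonged to a locus when its centre lay within 400 kb of a fixed gene position in the genome build mm9. The position was 78332000 on chromosome 13 for Nr2f1 and 77505000 on chromosome 7 for Nr2f2. Of the 26317 peaks in all 8 deposited lists, 54 met this rule, 26 of them at Nr2f1 and 28 at Nr2f2. The positions are single rounded coordinates, so distances of a few kb do not separate a promoter from the gene body.

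The 8 libraries came from wild-type CD-1 embryos at E12.5, from which the basal ganglia primordia and septum were dissected and pooled over several embryos per sample. Per the series' design text the dissected parts were the septum, the medial ganglionic eminence (MGE) and the lateral ganglionic eminence (LGE). The OTX2 group held 3 libraries, precipitated with an antibody whose target is OTX2. The input group held 3 libraries of chromatin without antibody, and the IgG group held 2 libraries precipitated with normal goat IgG. The third experiment had no IgG library. No group carried a mutation or treatment, and because the parts were pooled, a peak cannot be assigned to septum, MGE or LGE. Peak lists give no view of the cell types in the tissue.

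COUP-TFI and COUP-TFII are transcription factors that bind DNA as homodimers or as heterodimers with retinoid X receptors and often act as repressors. In the ventral forebrain COUP-TFI and COUP-TFII are known for their part in regional patterning and in the caudal ganglionic eminence, where they mark many migrating interneurons. OTX2 is a homeodomain factor that patterns the forebrain and midbrain, and ChIP-seq records where such a factor sits on chromatin by precipitating the bound DNA and sequencing it.

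In the RefSeq gene order of GRCm38, the closest protein-coding genes to Nr2f1 were Pou5f2 on the lower and Arrdc3 on the higher coordinate side. Those of Nr2f2 were Arrdc4 and the predicted gene Gm44812. Between these protein-coding neighbours lay 19 genes of other kinds around Nr2f1 and 18 around Nr2f2, among them the long non-coding RNA genes A830082K12Rik next to Nr2f1 and B130024G19Rik next to Nr2f2. Both receptor genes therefore had no other protein-coding gene as a direct neighbour in that table.

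Promoter sequences are shown because the third OTX2 library held peaks within a few kb of both gene positions. They come from RefSeq (GRCm38.p6), both on the minus strand, and run 5′ to 3′ from 250 bases before to 50 bases after an annotated transcript start. The Nr2f1 window is chr13:78198824-78199123 and the Nr2f2 window is chr7:70366697-70366996 of that build. These coordinates cannot be set beside the mm9 peaks, so whether a peak covers either window was not determined. Capitals mark TAATCC, the core motif usually given for OTX-class homeodomains, or its reverse complement GGATTA.
Nr2f1: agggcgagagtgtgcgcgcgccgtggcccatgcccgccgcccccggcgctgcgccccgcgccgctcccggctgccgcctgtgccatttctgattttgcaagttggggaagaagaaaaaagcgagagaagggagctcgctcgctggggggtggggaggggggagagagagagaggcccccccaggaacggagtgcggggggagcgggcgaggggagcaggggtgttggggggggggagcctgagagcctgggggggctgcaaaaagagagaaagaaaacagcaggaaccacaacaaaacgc
Nr2f2: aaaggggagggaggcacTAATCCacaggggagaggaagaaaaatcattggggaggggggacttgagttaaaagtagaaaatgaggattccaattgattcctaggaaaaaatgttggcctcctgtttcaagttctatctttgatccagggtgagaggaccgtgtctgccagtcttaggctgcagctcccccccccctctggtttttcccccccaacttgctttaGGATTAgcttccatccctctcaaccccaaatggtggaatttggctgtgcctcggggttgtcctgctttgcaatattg
The Nr2f2 promoter held 2 matches, TAATCC starting 233 bases and GGATTA starting 27 bases before the transcript start. Neither of the 2 Nr2f1 windows in the table held a match. Among 32851 RefSeq promoters of this length, 7.06% held at least 1 match on either strand and 0.36% held at least 2. A match is only a description of the letters, and the absence of one says nothing about OTX2 at Nr2f1. The printed Nr2f1 promoter was rich in G and C (68%), against 49.7% for Nr2f2 and a median of 52.7% over all promoters. The other Nr2f1 window, not printed, had 43%.

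OTX2 peaks were present at both loci in every OTX2 library, and 1 control library held a single peak there. At Nr2f1 the OTX2 lists held 3, 2 and 20 peaks in replicates 1, 2 and 3, and at Nr2f2 they held 3, 3 and 22. Input replicate 2 had 1 peak at Nr2f1, and the other 4 control lists had none at either locus. At each locus, then, the lowest OTX2 count was above the highest control count. The same held in 591 of 3187 tiles of 800 kb laid along the chromosomes (18.5%), so this separation was common in the genome.

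The log10 of the peak number plus 1, over both loci, was 1.09 ± 0.48 (SD, n = 3) in OTX2 and 0.10 ± 0.17 (SD, n = 3) in input libraries. The difference was 0.99 (exact permutation test of the library labels, two-sided, p = 0.10). With 3 against 3 libraries no lower p can be reached. Against all 5 control libraries (0.06 ± 0.13, SD) the difference was 1.03 (exact permutation test, p = 0.036, again the lowest this design can reach; Benjamini-Hochberg adjusted over the 2 comparisons, p = 0.071). It was 0.74 within replicates 1 and 2, whose track names lack the tag of the replicate 3 lists (exact permutation test, p = 0.13). The OTX2 and input lists of replicate 3, 1 of each, carry that tag, too few for a test among them.

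As a share of each list the loci took 0.325% of OTX2 replicate 1 peaks (6 of 1848, exact Clopper-Pearson 95% interval 0.119 to 0.705%). The share was 0.385% in replicate 2 (5 of 1298, 0.125 to 0.897%) and 0.188% in replicate 3 (42 of 22325, 0.136 to 0.254%). The control lists were short, with between 138 and 235 peaks, and a count of 0 in the 4 lists without a peak at the loci allows a share of up to 1.28 to 2.17%, taken as 3 counts of the list. The exact Clopper-Pearson upper limits of these lists were 1.56 to 2.64%. Input replicate 2 had 0.704% (1 of 142, 0.018 to 3.86%). A difference in share was therefore not detectable, and the comparison rests on peak numbers, which depend on how many peaks were called in each library. Intervals and limits cover counting error only, and the read depth is unknown.

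**Figure D1:**
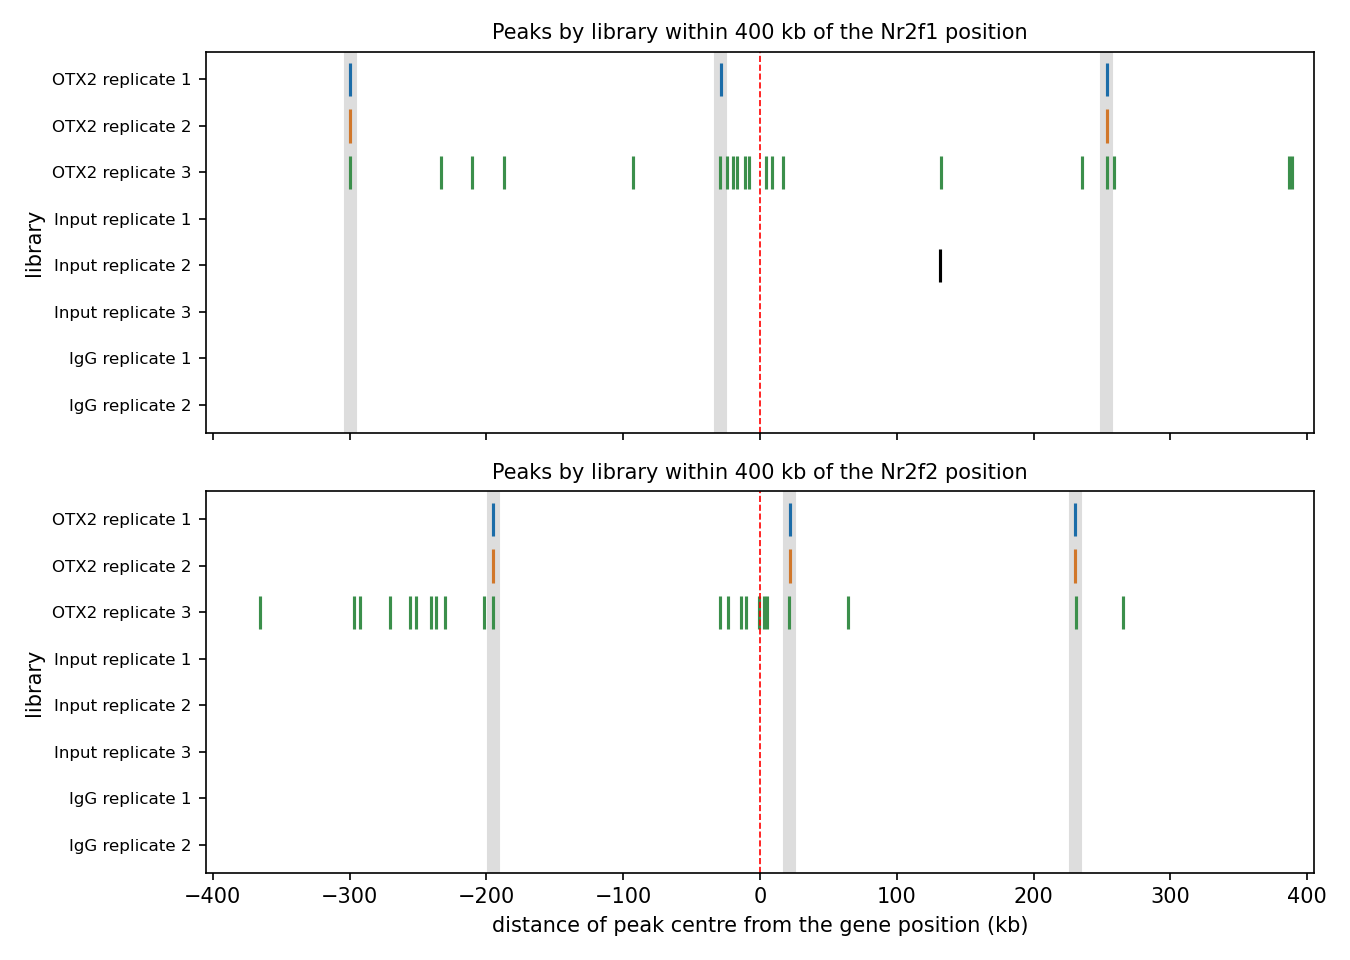
Peak centres of each of the 8 libraries (rows) by distance from the gene position in kb, for Nr2f1 (top) and Nr2f2 (bottom); each vertical line is 1 peak, the dashed line is the gene position and grey bands mark OTX2 regions found in at least 2 libraries. Each locus has 3 grey bands, replicate 3 has a dense group of peaks around each gene position, and the only control peak is that of input replicate 2 at Nr2f1.

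Peaks were denser at the loci than over the genome in every OTX2 library and, with its single peak, in input replicate 2 (0.625 against 0.055 per Mb, a ratio of 11.3). Replicate 1 had 3.75 peaks per Mb in the windows and 0.721 per Mb over the chromosomes, a ratio of 5.20. Replicate 2 had 3.13 and 0.507 per Mb, a ratio of 6.16. Replicate 3 had 26.3 and 8.73 per Mb, a ratio of 3.01. At this window length the ratio exceeded 3 in each OTX2 library, with only 6 and 5 peaks behind the values of replicates 1 and 2. In replicate 3 it did so narrowly, and it was 2.08 within 800 kb.

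Such counts were uncommon but not rare among tiles of the same length. At least 3 replicate 1 peaks, the count at both loci, were found in 5.15% of the 800 kb tiles. For replicate 2, the count of 2 at Nr2f1 was reached in 8.06% of tiles and the count of 3 at Nr2f2 in 3.07%. For replicate 3, the 20 peaks at Nr2f1 were reached in 3.73% and the 22 at Nr2f2 in 2.26% of tiles. The tiles were not placed at genes, and the loci were not compared with those of other genes.

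Regions were defined as overlapping OTX2 peaks from at least 2 of the 3 OTX2 libraries, with no overlap with an input or IgG peak. Each locus held 3 regions, and 5 of the 6 were present in all 3 libraries. At least 3 regions were found in 6.02% of the 800 kb tiles, and at least 1 in 35.9%. Over the genome, 8.61% of merged OTX2 intervals were such regions, against 6 of the 42 intervals at the loci. Of all 1949 regions, 40.5% were present in 3 libraries.

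**Figure D2:**
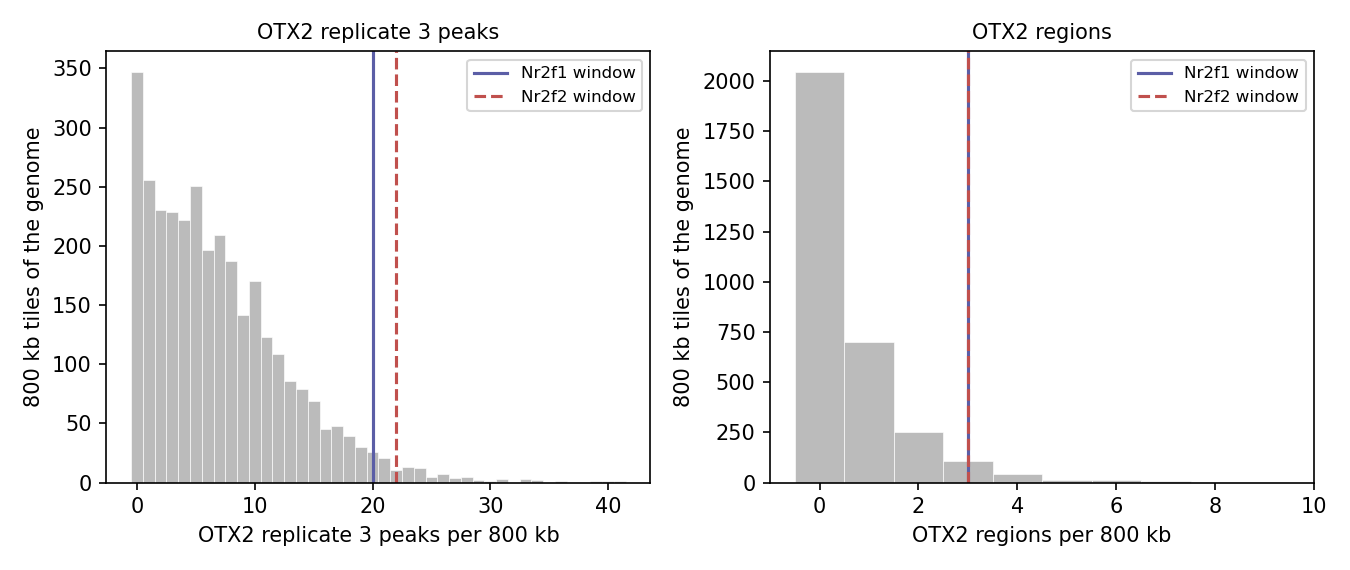
Number of 800 kb tiles of the genome (y axis) by the count of replicate 3 peaks (left) and of OTX2 regions (right) they held (x axis); vertical lines mark the windows of Nr2f1 and Nr2f2. The windows, with 20 and 22 replicate 3 peaks and 3 regions each, lie in the upper tail of both distributions, while the highest tiles held 41 peaks and 9 regions.

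The best-ranked region lay at Nr2f2, 195 kb to the lower-coordinate side of the gene position, on chromosome 7 from 77309450 to 77310676. The authors ranked it 11 in replicate 1, 33 in replicate 2 and 43 in replicate 3. Expressed as the rank in percent of the list's length (the rank percentile, low for well-ranked peaks), these were 0.595, 2.54 and 0.193%. All 3 libraries thus placed this site near the top, and by its mean rank percentile it was 21st of the 789 regions present in 3 libraries.

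A region 21.5 kb to the higher-coordinate side of the Nr2f2 position, on chromosome 7 from 77525556 to 77527355, was ranked 464, 296 and 205 in replicates 1, 2 and 3. It was the region closest to either gene, and its percentiles were 25.1, 22.8 and 0.918%. The remaining region at Nr2f2 lay 231 kb to the higher side, from 77734868 to 77737002, with ranks 567, 874 and 1718. Its percentiles of 30.7, 67.3 and 7.70% put it in the lower part of the replicate 2 list.

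At Nr2f1 the best-ranked region lay 299 kb to the lower side, on chromosome 13 from 78030322 to 78034776. It was ranked 25, 127 and 52 in replicates 1, 2 and 3, with percentiles of 1.35, 9.78 and 0.233%. Its replicate 3 peak was 4455 bp wide, wider than or equal to 99.7% of the peaks in that list, while the peaks of replicates 1 and 2 inside it were 359 and 413 bp wide. By mean percentile the region was number 68 of the 789.

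A second region at Nr2f1 lay 254 kb to the higher side, from 78584600 to 78586445, with ranks 183, 396 and 246 and percentiles of 9.90, 30.5 and 1.10%. The region nearest to the Nr2f1 position, 29.1 kb to its lower side from 78302126 to 78303733, had the worst rank of the 6 in both libraries that held it. It was ranked 1514 in replicate 1 (81.9%) and 2499 in replicate 3 (11.2%), and replicate 2 had no peak there. It is the only one of the 6 regions that rests on 2 libraries, and without replicate 1 or replicate 3 it is lost.

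**Figure D3:**
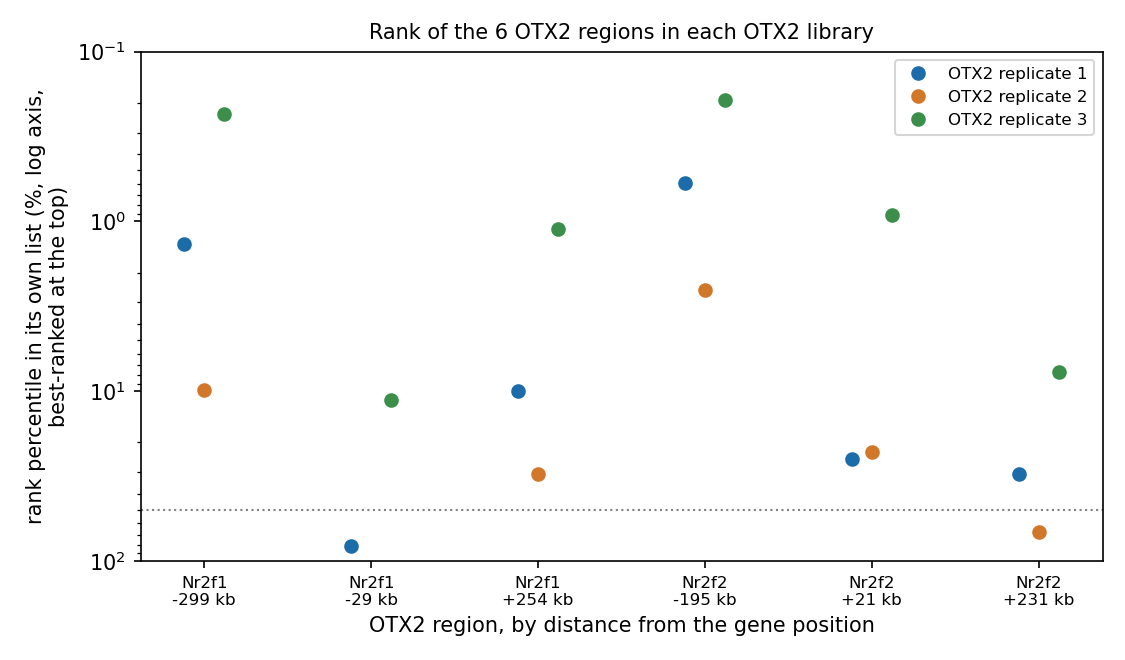
Rank percentile (log axis, best-ranked at the top) of the best peak of each OTX2 library in the 6 regions, named by locus and distance from the gene position; points are single libraries and the dotted line marks the middle of a list. The Nr2f2 region at 195 kb and the Nr2f1 region at 299 kb are in the best-ranked 10% of all 3 libraries, and the Nr2f1 region at 29.1 kb has no replicate 2 point.

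Neighbouring regions at these loci lay more than 200 kb apart. Centres of consecutive regions were 270 and 283 kb apart at Nr2f1 and 216 and 209 kb apart at Nr2f2. None of the 6 had another region within 50 kb. In the genome 24.8% of regions had one, so having none was common. The distances were not compared with those between other regions. The longest stretches without any OTX2 peak were 127 kb at Nr2f1, from 78591545 to 78718460, and 165 kb at Nr2f2, from 77569798 to 77734867.

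Every peak of the short lists recurred in replicate 3. All 6 replicate 1 peaks at the loci were overlapped by replicate 3 (95% interval 54.1 to 100%, against 87.9% over the list), and so were all 5 replicate 2 peaks (47.8 to 100%, against 92.1%). Replicate 2 overlapped 5 of the 6 replicate 1 peaks (83.3%, 35.9 to 99.6%, against 43.0%). In the other direction, 6 of the 42 replicate 3 peaks were overlapped by replicate 1 or 2 (14.3%, 5.43 to 28.5%, against 8.83%). With every list cut to its best-ranked 1298 peaks, replicate 3 had 4 peaks at the loci and all 4 were overlapped (100%), against 80.4% over the list. In these cut lists replicate 3 overlapped 4 of 5 replicate 1 peaks (80%, against 68.3% over the list). It also overlapped 4 of 5 replicate 2 peaks (80%, against 63.3%). For the uncut lists all 4 intervals include the value of the whole list, which itself contains these peaks. With this number of peaks no difference from that value was detectable. The intervals treat peaks as independent, and the overlaps behind all 4 shares lie in the same regions, so this is a description and not a test.

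Peak centres of replicates 1 and 2 nearly coincided in the 5 regions present in all libraries, lying 3 to 41 bp apart with a median of 15 bp. Over all 789 such regions the median was 46 bp, and 46.1% were at most 41 bp apart. Centres of replicates 1 and 3 lay 154 to 613 bp apart with a median of 311 bp, against 123 bp over the genome, where 41.6% were at least 154 bp apart. Replicate 3 peaks were wide, with a median of 1224 bp at the loci and 827 bp over the list. Those of replicates 1 and 2 had medians of 261 and 253 bp at the loci, against 191 and 182 bp over their lists. When each peak was reduced to 200 bp around its centre, 1 of the 6 replicate 1 peaks (16.7%) and 1 of the 5 replicate 2 peaks (20.0%) at the loci were still overlapped in replicate 3. Over the whole lists at 200 bp these shares were 59.8 and 60.9%.

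Replicate 3 alone showed many further peaks close to the genes. Within 50 kb of the gene position it had 9 peaks at Nr2f1 and 8 at Nr2f2, or 90 and 80 peaks per Mb. From 50 to 100 kb away each locus had 10 peaks per Mb, from 100 to 200 kb Nr2f1 had 10 and Nr2f2 had 5, and from 200 to 400 kb they had 20 and 30. Of these stretches, which pool both sides, the one at the gene was the densest at both loci. Those from 50 to 200 kb lay near the mean of 8.73 per Mb over the chromosomes. On the lower side of Nr2f2, however, 9 replicate 3 peaks lay between 297 and 201 kb from the gene position. That series, whose limits were set by its own peaks, was shorter than the 100 kb at the gene, which held 8. At Nr2f2 the gene was therefore not the only place with such a density. The distance of 50 kb was chosen after seeing the peaks.

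Tiles of 100 kb with as many peaks were rare. These tiles were not placed at genes, whereas the windows were centred on them with a width chosen after seeing the peaks. The shares below are therefore not a like reference. At least 8 replicate 3 peaks were found in 0.215% of 25566 such tiles and at least 9 in 0.110%, with a mean of 0.872 per tile and a maximum of 14. Of the 9 peaks at Nr2f1 and the 8 at Nr2f2, 1 at each locus overlapped a peak of replicate 1 or 2, together 11.8%, against 8.83% of the whole replicate 3 list. Of the 55 tiles with at least 8 replicate 3 peaks, 27.3% held no peak of replicate 1 or 2. Like most of the replicate 3 list, the other 15 peaks near the genes were seen in that library alone. Its list was the longest and may have been called with other settings, and the part of this in the clusters was not tested.

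**Figure D4:**
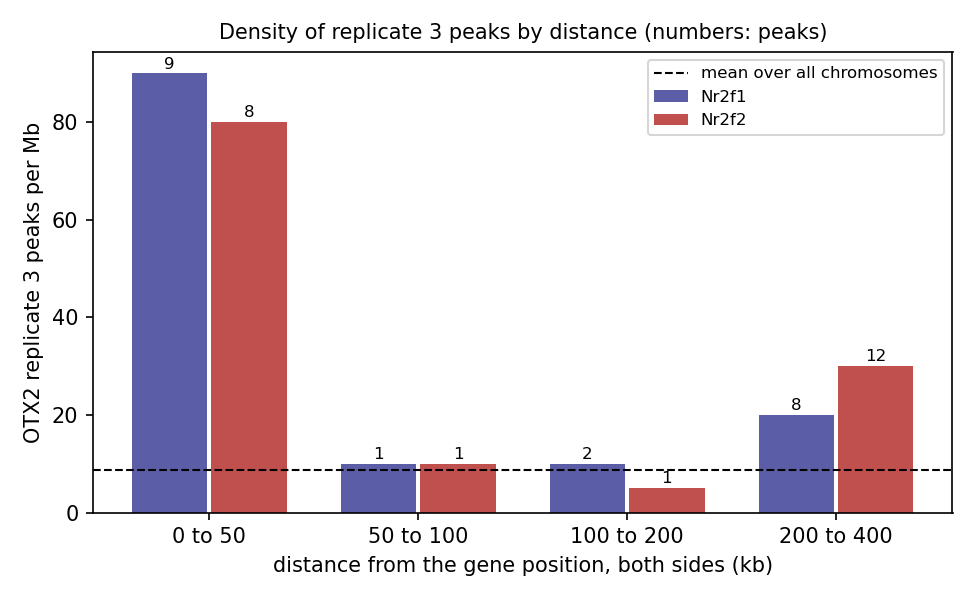
Density of OTX2 replicate 3 peaks per Mb (bars, with the number of peaks above each) by distance from the gene position, both sides together, at Nr2f1 and Nr2f2; the dashed line is the mean over all chromosomes. The bars within 50 kb stand at 90 and 80 per Mb, those from 50 to 200 kb at 5 to 10 per Mb, and the dashed line at 8.73 per Mb.

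Of the 3 peaks nearest each gene position outside the regions, 5 of the 6 were in the worse-ranked part of the list, with percentiles from 62.0 to 93.5%. The nearest at Nr2f1, centred 4.30 kb to the higher side (from 78335391 to 78337207), was ranked 13838. The next lay 8.23 kb to the lower side (78323231 to 78324315, rank 19159) and 9.12 kb to the higher side (78339317 to 78342922, rank 6139 or 27.5%, the exception). At Nr2f2 the nearest peak was centred 0.83 kb to the lower side (77503820 to 77504515) and was ranked 16256. Peaks at 2.94 kb (77507456 to 77508424) and 5.46 kb (77509425 to 77511504) to the higher side were ranked 20870 and 15409. None of these 6 peaks overlapped a peak of another library. For replicates 1 and 2 this follows from picking the peaks outside the regions. The 8.83% of the whole list that overlapped replicate 1 or 2 is therefore not a like reference.

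Within 50 kb the median rank percentile was 43.1% at Nr2f1 and 68.2% at Nr2f2. Farther out, from 50 to 400 kb, it was 17.7% and 47.6%. The best-ranked 10% of the replicate 3 list contributed 1 of 17 near peaks over both loci and 7 of 25 farther ones. Some of the near peaks were broad, such as the 3606 bp peak at Nr2f1 with rank 6139 (27.5%) and a 3566 bp peak 28.9 kb to the lower side of Nr2f2 (77474346 to 77477911) with rank 12562 (56.3%). Both were at least as wide as 99.4% of the list.

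**Figure D5:**
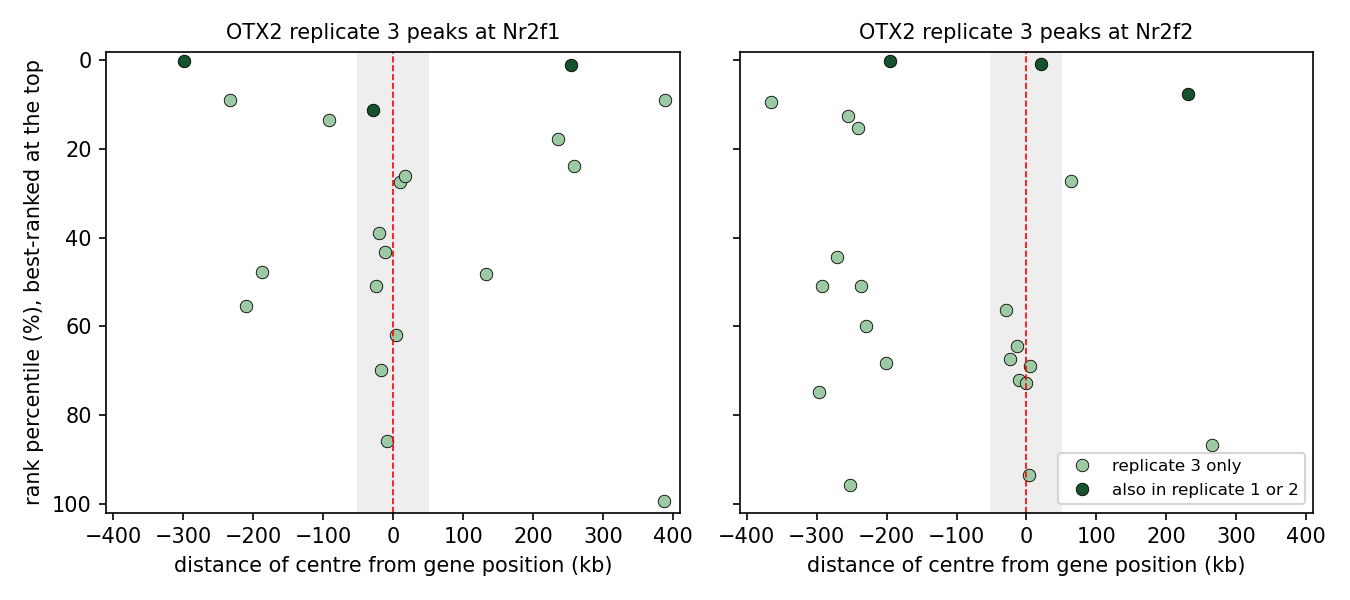
Rank percentile of each OTX2 replicate 3 peak (y axis, best-ranked at the top) by distance from the gene position in kb, for Nr2f1 (left) and Nr2f2 (right); dark points overlap a peak of replicate 1 or 2, light points do not, and the grey band marks 50 kb on either side. Of the 17 points in the bands 2 are dark, and at Nr2f2 the other 7 points near the gene all lie in the worse-ranked part of the list.

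Over both loci 8 replicate 3 peaks belonged to the best-ranked 10% of that list, and 5 of them were overlapped by replicate 1 or 2, against 64.6% of such peaks in the genome. The other 3 were replicate 3 peaks on chromosome 13 from 78720091 to 78721504 (rank 1978, 389 kb from Nr2f1) and from 78098581 to 78099795 (rank 2018, 233 kb), and on chromosome 7 from 77138990 to 77140615 (rank 2080, 365 kb from Nr2f2). Next at Nr2f1 came peaks from 78239014 to 78240080 (rank 3003), 78566341 to 78568039 (rank 3947) and 78590211 to 78591544 (rank 5310). The last 2 of these lay 235 and 259 kb away, on either side of the region at 254 kb. At Nr2f2 the next were peaks from 77248347 to 77250160 (rank 2799), 77262820 to 77265825 (rank 3383), 77568571 to 77569797 (rank 6098) and 77233890 to 77234632 (rank 9889). All of these Nr2f2 peaks but the one ranked 6098 belonged to a series of 9 replicate 3 peaks between 297 and 201 kb on the lower side, next to the best-ranked region.

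The median rank percentile over all peaks at the loci was 17.5% in replicate 1, 22.8% in replicate 2 and 48.0% in replicate 3, where the median of a whole list is its middle. The medians of the short lists at these loci were thus better than the middle, although the replicate 1 peak with rank 1514 and the replicate 2 peak with rank 874 were worse than it. Replicate 3 differed between the loci, with a median of 33.2% over 20 peaks at Nr2f1 and 58.1% over 22 peaks at Nr2f2. That difference is between peaks of 1 library and was not tested.

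The single control peak at the loci, in input replicate 2, lay on chromosome 13 from 78463666 to 78463796, 132 kb to the higher side of Nr2f1, with rank 94 of 142. It overlapped a replicate 3 peak from 78463638 to 78464435 (rank 10779), which no other OTX2 library shared. Keeping regions with a control peak left the count at 3 for each locus.

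Near the limit of 400 kb, the outermost peaks counted were a replicate 3 peak 389 kb from Nr2f1 (rank 1978) and one 365 kb from Nr2f2 (rank 2080). Just outside on the Nr2f2 side lay a region found in all 3 libraries, 410 kb to the lower side on chromosome 7 from 77094448 to 77095843, with ranks 77, 282 and 130. Just outside Nr2f1 were IgG peaks of replicate 2 at 414 kb and replicate 1 at 418 kb and a replicate 3 OTX2 peak at 437 kb (rank 12023), and the next region lay 644 kb away.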

How the data were processed

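The authors deposited 1 peak list per library (BED, mm9) with a rank for each peak, so peaks were called per sample and not on pooled samples. The submitters' processing notes name BWA and MACS 1.4, without roles. No source used here gives the control, the threshold, the ranked quantity or the read depth. Per the file headers, both lists of replicate 3 carry a tag that the other 6 lack.

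Groups and replicate numbers came from sample titles. Whether the 3 experiments used separate litters is not stated, so p-values refer to these libraries only. They come from permuting library labels. Those at their lowest possible value reflect the group sizes and the separation of the counts, and do not measure the spread between libraries. Coordinates are printed 1-based. Overlap meant at least 1 bp, and tiles of 800 and 100 kb ran from the lowest to the highest peak position of each autosome and X. Python 3.11.15, numpy 2.4.6 and scipy 1.17.1 were used; the overlap functions were tested on simulated data and gave the same counts as bedtools 2.31.1. Named are all regions and control peaks, the peaks at the 400 kb limit and, per locus, the 5 best-ranked and 3 nearest other replicate 3 peaks.

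The loci, lists and tests were chosen with earlier results of these data known. Peak sequences and the loci of related receptors and cofactors, such as Nr2f6, Nr2e1 and Rxra, were not analysed here, because the sequence and gene tables used are GRCm38.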

Additional observations from a re-analysis of the deposited data

How the results depend on the processing

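Of 81 alternative values, 63 stayed within the limits set for them (the same side of a test's threshold, counts within 1.5 times, other values within their interval or 1 SD between libraries), 18 did not, and none reversed direction. The excess of OTX2 over all control libraries (exact permutation test, unadjusted p = 0.036; adjusted p = 0.071, which misses the threshold) missed it also before adjustment as a percentage of each list (0.158 percentage points, p = 0.43) and with the replicate block, which compared libraries of the same replicate number (difference 1.04, exact sign-flip permutation test, p = 0.25, the smallest possible with 3 pairs). Leaving out each replicate gave 0.736 to 1.24 (exact permutation p = 0.13 to 0.20), designs too small to pass. Against input alone the block gave 0.985 (exact permutation p = 0.25), and the percentage of each list gave 0.065 percentage points (exact permutation p = 0.80). With 3 against 3 libraries or fewer, this comparison could not pass the threshold under any setting. Its alternatives were therefore counted among the 63 whatever their values, and they say nothing about how stable the result is. The replicate number marks the experiment, and pairing was not checked in another way.

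Regions at Nr2f1 numbered 1 within 200 kb and 1 within 50 kb, and those at Nr2f2 1 within 50 kb, against 3 within 400 kb. Counting any 1 OTX2 library gave 19 at Nr2f1 and 22 at Nr2f2. Leaving out a replicate gave 2 to 3 regions at Nr2f1 and 3 at Nr2f2. With 200 bp windows the overlaps were 16.7% (replicate 1 in 3), 20.0% (2 in 3) and 2.38% (3 in 1 or 2), against 59.8, 60.9 and 6.39% over the whole lists. With lists of the shortest length (1298 peaks) the last was 100%, against 80.4%. Replicates 1 and 2 in 3 were then at 80% each, against 68.3 and 63.3%. The density ratio of replicates 1 and 2 fell to 3.47 and 3.70 within 800 kb and rose to 8.66 and 9.85 in the better-ranked part of the lists, 50% of each. That of replicate 3 fell from 3.01 to 2.08 within 800 kb, which stayed within its limit. The causes were not tested. The windows within 50 kb were chosen after seeing the data.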
